A study of Homo sapiens with 12 samples.

Results

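The 38 genes described here encode the enzymes that make serine, pass carbon units through folate and methionine, and build purine, pyrimidine and deoxyribonucleotides. They were chosen by symbol among the 27514 genes of a deposited expression table, and all 38 were found and tested. RNA was sequenced from IMR32 cells, a line from a human neuroblastoma with an amplified MYCN gene, in 12 samples. The 4 groups of 3 samples were electroporated with small interfering RNA (siRNA) that was a control (siCtrl), targeted MYCN (siMYCN), targeted HAND2 (siHAND2), or targeted both genes at once (siMYCN+siHAND2, here the combined knockdown). Sample titles give 1 numbered siRNA label per target, so effects of that reagent beyond its target cannot be told apart from loss of the target. RNA was taken 72 h after transfection in every group, and all groups share 1 cell line, so the samples of a group are repeats within that line. Nothing in the labels says that replicates were separate cultures, and p-values therefore measure the spread between these samples, which may be technical.

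Proliferating cells make most of their nucleotides anew. Serine is built from a glycolytic intermediate by PHGDH, PSAT1 and PSPH, and its side-chain carbon is moved to folate by the SHMT enzymes. Folate then carries that carbon to the purine ring, to thymidylate and to methionine. Purine synthesis runs from phosphoribosyl pyrophosphate (PRPP) to inosine monophosphate (IMP) and branches to AMP and GMP. Pyrimidine synthesis starts at CAD, and ribonucleotide reductase (RRM1 with RRM2) turns ribonucleotides into the precursors of DNA. MYCN is a MYC family transcription factor that binds E-box DNA, most strongly CACGTG, and MYC proteins are known activators of many genes of nucleotide synthesis. HAND2 is a transcription factor of sympathetic neuron development and belongs to the core regulatory factors of neuroblastoma.

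Promoters were read from RefSeq (GRCh38.p14), as the 300 bases from 250 before to 50 after each annotated start, and 34 of the 38 genes had an entry (ADSL, IMPDH2, PSPH and SHMT2 did not). The letters CACGTG, searched on both strands, stood in the promoters of 7 of these 34 genes (20.6%). They stood in 12.95% of the 9665 tested genes with an entry and 8.78% of all 27305 genes with one. The 7 were ATIC, DHODH, MTHFD1, MTHFD1L, NME1, PAICS and PPAT. They are printed because 3 of them, PAICS, MTHFD1L and PPAT, are among the genes with the largest falls under siMYCN below. Each sequence runs 5′ to 3′ on the strand named with it, which is the strand of its gene, and capitals mark the CACGTG letters. PPAT and PAICS lie head to head on chromosome 4, and the same CACGTG at chr4:56435792-56435797 lies in both promoters and is printed on each strand, 182 bases before the PPAT start and 40 bases after the PAICS start.

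PPAT, chr4:56435780-56435809, minus strand: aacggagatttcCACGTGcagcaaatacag

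PAICS, chr4:56435780-56435801, plus strand: ctgtatttgctgCACGTGgaaa

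MTHFD1L, chr6:150866320-150866349, plus strand: cacgcccggctcCACGTGcgcagccggccg

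MTHFD1, chr14:64388326-64388355, plus strand: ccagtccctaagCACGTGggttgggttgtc

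ATIC, first site, chr2:215312001-215312030, plus strand: gggccggcgggcCACGTGataagcccggaa

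ATIC, second site, chr2:215312076-215312105, plus strand: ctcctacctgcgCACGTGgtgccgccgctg

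DHODH, chr16:72008573-72008602, plus strand: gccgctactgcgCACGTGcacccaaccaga

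NME1, chr17:51153581-51153608, plus strand: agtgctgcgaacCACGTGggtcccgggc

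The letters CATCTG, an E-box form bound by HAND proteins with their partners, stood in the promoters of 3 of the 34 genes (8.82%, beside 13.2% of the tested genes): ATIC, CTPS1 and IMPDH1. The letters TTNGCGC, an E2F-type site, stood in 8 (23.5%, beside 16.1%): AHCY, DUT, GART, GLDC, MAT2A, MTR, PSAT1 and RRM2. None of the 3 motifs can lie on the same bases as another in full. The sites of DUT and RRM2 are printed because both genes supply DNA precursors, a class whose genes differed between the single knockdowns below. Capitals mark the motif letters, and in RRM2 the motif lies on the other strand.

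DUT, chr15:48332159-48332189, plus strand: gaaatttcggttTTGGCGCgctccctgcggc

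RRM2, chr2:10122364-10122394, plus strand: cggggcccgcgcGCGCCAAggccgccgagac

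Expression was given as CPM, the reads of a gene scaled to all reads of its library. Libraries held about 31600000 to 64200000 reads, judged from the size of the smallest steps in the values. The share of reads that fell on listed genes was 65.1% ± 0.736 (SD, n = 3) in siCtrl, 62.4% ± 0.979 under siMYCN, 59.4% ± 2.39 under siHAND2 and 51.4% ± 7.04 with both siRNAs, whose 3 libraries ran from 44.3% to 58.4%. The median log2 fold change over the 12680 tested genes was 0.0056 under siMYCN, -0.14 under siHAND2 and -0.28 with both siRNAs, all against siCtrl. After scaling each library by its median ratio to the other libraries, these medians were 0.014, 0.012 and 0.045, and values on that scale are called rescaled below. Of 9 neuroblastoma markers, 8 had a mean of at least 1 CPM over all samples, and TH, which encodes an enzyme of catecholamine synthesis, was lower at 0.782 CPM. The summed level of the 9 markers was 1694 to 1808 CPM in siCtrl, 1639 to 1702 under siMYCN, 1450 to 1588 under siHAND2 and 961 to 1349.9 with both siRNAs. These 9 include MYCN and HAND2, the targeted genes, which made up most of that sum in siCtrl. Its fall therefore does not describe the other markers, which moved in both directions. PHOX2A stood at 62.4 to 72.3 CPM in siCtrl and 15.4 to 17.2 under siHAND2, and ISL1 at 20.4 to 22.2 and 46.0 to 48.0. Of 9 markers of other cells, 2 had a mean above 1 CPM and PRRX1 was at 0. Their summed level was 8.09 to 10.02 CPM in siCtrl, 8.35 to 9.26 under siMYCN, 3.12 to 3.51 under siHAND2 and 2.75 to 3.80 with both siRNAs, and their part in the results was not tested.

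The targeted genes were lower where they were targeted. MYCN stood at 964, 1049 and 1015 CPM in siCtrl, 671, 666 and 708 in siMYCN, 899, 844 and 802 in siHAND2, and 555, 458 and 433 in the combined knockdown. HAND2 stood at 224, 241 and 254 CPM in siCtrl, 324, 319 and 334 in siMYCN, 54.3, 64.9 and 67.7 in siHAND2, and 86.3, 67.1 and 67.2 in the combined knockdown. MYCN was thus lower in all 3 siMYCN samples than in any siCtrl sample, but most of its transcript remained, whereas HAND2 fell further. HAND2 was also higher under siMYCN (log2 fold change 0.44 ± 0.12 SE, limma adjusted p = 0.0062), so the siMYCN group combined less MYCN with more HAND2 transcript. MYCN under siHAND2 did not pass the test (log2 fold change -0.25, limma adjusted p = 0.086, and -0.091 rescaled). MYCN was also lower in the combined knockdown than under siMYCN (log2 fold change -0.51, limma adjusted p = 7.0e-04). After rescaling this difference was -0.16 and not called (limma adjusted p = 0.054). Where the combined knockdown is set against siMYCN below, HAND2 loss and a deeper MYCN fall cannot be told apart.

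Nucleotide synthesis genes were lower in each knockdown, and all of them were lower in the combined one. A gene was called where limma's Benjamini-Hochberg adjusted p was under 0.05 over all 12680 genes, with fold changes on the scale log2(CPM + 1). Under siMYCN, 30 of the 38 genes fell and none rose, beside 33.7% of all tested genes called in either direction and 16.3% called lower. A fit that blocks on replicate number called 32 (38.8% of tested genes), adding HPRT1 and DHODH. Under siHAND2, 30 fell and none rose, beside 42.7% called and 30.4% called lower. In the combined knockdown all 38 fell, beside 67.4% called and 50.1% called lower. The median log2 fold change of the 38 genes was -0.54, -0.48 and -1.33 in the 3 comparisons, and on the rescaled values -0.53, -0.33 and -0.97. On those rescaled values 32 fell under siMYCN (22.5% of tested genes called lower), 28 fell and 1 rose under siHAND2 (24.9% lower, 25.9% higher), and 38 fell in the combined knockdown (33% lower). The summed level of the 38 genes was 4320 ± 93.6 CPM (SD, n = 3) in siCtrl, 2969.5 ± 93.1 under siMYCN, 3034 ± 183 under siHAND2 and 1661 ± 256 with both siRNAs. The 3 comparisons share the siCtrl samples, so their values are given side by side and not as independent results.

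**Figure D1:**
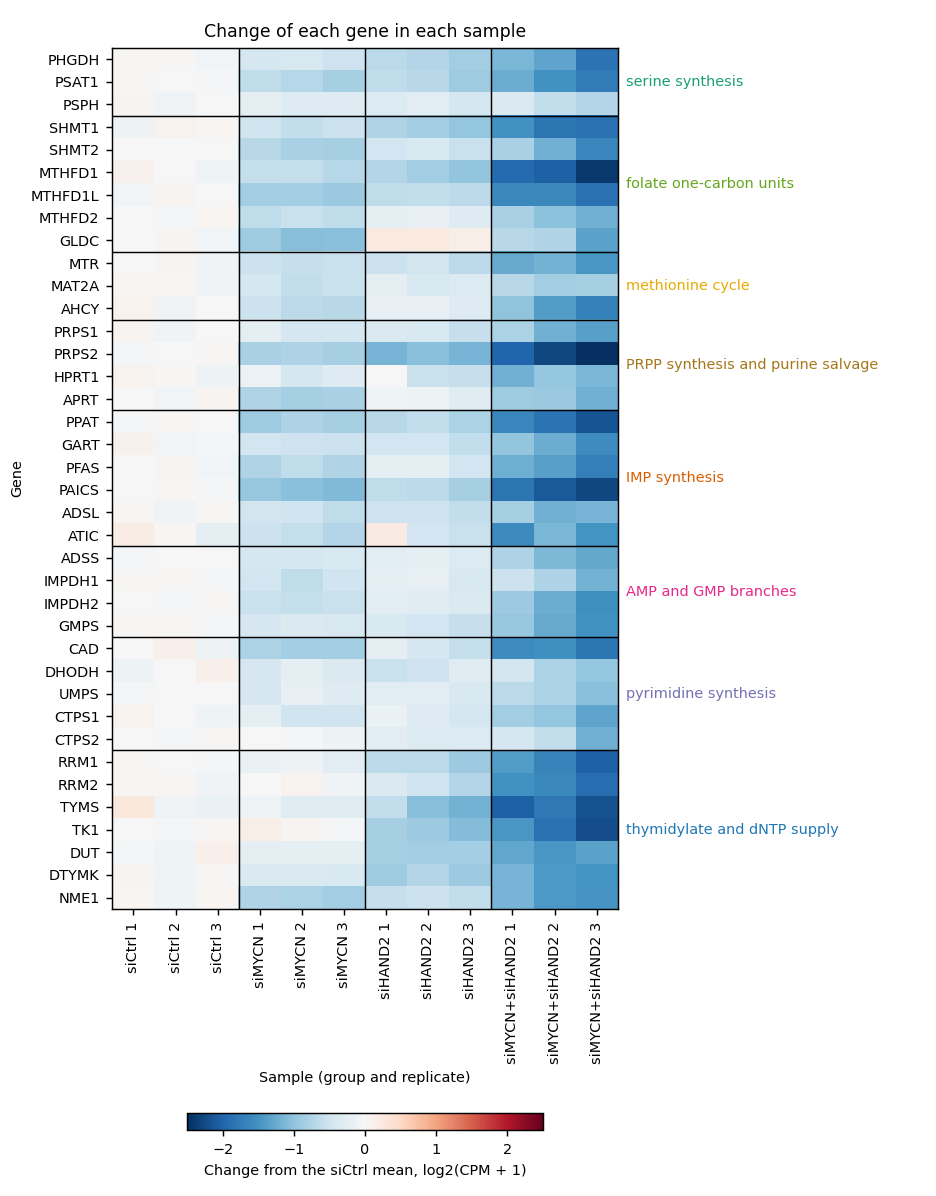
Change of each of the 38 genes (rows, grouped by role) in each of the 12 samples (columns) from the mean of the 3 siCtrl samples, in units of log2(CPM + 1), with blue for lower and red for higher. The combined knockdown is blue in every row, GLDC is faintly red in the siHAND2 columns, and RRM2 and TK1 are near white in the siMYCN columns.

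Serine synthesis genes fell in each knockdown, 3 of 3 every time, but the call of PSPH under siMYCN stood at the threshold. Under siMYCN, siHAND2 and both, 16.3%, 30.4% and 50.1% of all tested genes were called lower. PSAT1, the aminotransferase of the pathway, stood at 61.3, 60.6 and 58.1 CPM in siCtrl, 38.1, 36.5 and 33.1 in siMYCN, 38.5, 36.7 and 32.1 in siHAND2, and 24.7, 20.4 and 17.1 in the combined knockdown. The 2 single knockdowns overlapped each other and lay between siCtrl and the combined knockdown, with a log2 fold change of -0.73 in both and -1.50 in the combined knockdown (SE 0.12, limma adjusted p = 5.5e-11). PHGDH, which commits 3-phosphoglycerate to serine, had log2 fold changes of -0.45, -0.76 and -1.44 under siMYCN, siHAND2 and both. The PHGDH call under siMYCN was lost with no filter (limma adjusted p = 0.051) and in 1 of 12 fits with 1 sample removed. PSPH, the phosphatase of the last step, had the smallest combined fall of the 38 genes. Its samples stood at 17.4, 15.6 and 16.7 CPM in siCtrl, 14.1, 13.1 and 13.1 in siMYCN, 12.8, 13.4 and 12.0 in siHAND2, and 12.7, 10.5 and 9.60 in the combined knockdown, where it overlapped siHAND2. Its log2 fold change of -0.28 under siMYCN had limma adjusted p = 0.04998, and the call was lost with 0.1 added in place of 1 (0.053), with no filter on low values (0.065) and in 10 of 12 fits with 1 sample removed. Its log2 fold change in the combined knockdown was -0.57 ± 0.11 SE (limma adjusted p = 7.8e-05), and -0.23 rescaled.

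Folate enzymes that load and interconvert carbon units fell under siMYCN in 6 of 6 cases, under siHAND2 in 4 of 6, and in the combined knockdown in 6 of 6. Of all tested genes, 16.3%, 30.4% and 50.1% were called lower there. MTHFD1, the cytosolic enzyme that interconverts 3 folate forms, had the second largest fall of the 38 genes in the combined knockdown. It stood at 147, 135 and 125 CPM in siCtrl, 89.1, 89.6 and 82.7 in siMYCN, 81.3, 74.0 and 67.4 in siHAND2, and 34.6, 32.2 and 24.6 in the combined knockdown. The 4 groups did not overlap, and the combined level was 22.4% of siCtrl (log2 fold change -2.13 ± 0.12 SE, limma adjusted p = 1.6e-13). MTHFD1L, its mitochondrial counterpart, stood at 45.9, 50.4 and 48.0 CPM in siCtrl, 25.7, 26.4 and 24.96 in siMYCN, 30.7, 30.9 and 30.3 in siHAND2, and 15.1, 15.1 and 12.6 in the combined knockdown. Unlike MTHFD1, MTHFD1L was lower under siMYCN than under siHAND2 in every sample, a log2 difference of -0.25 with limma adjusted p = 0.074, and of -0.39 with limma adjusted p = 1.6e-04 after rescaling. MTHFD2, the mitochondrial dehydrogenase and cyclohydrolase, stood at 307 to 328 CPM in siCtrl, 205 to 217 under siMYCN, 253 to 275 under siHAND2 and 137 to 182 with both siRNAs. It fell under siMYCN (log2 fold change -0.61), whereas its log2 fold change of -0.26 under siHAND2 was not called (limma adjusted p = 0.066). MTHFD2 was called under siHAND2 with the replicate block (limma adjusted p = 0.044) and with scaling to the sum over listed genes (0.046), but not after rescaling (0.10).

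The serine hydroxymethyltransferases transfer the carbon of serine to folate. SHMT1, the cytosolic form, stood at 14.8, 17.4 and 16.8 CPM in siCtrl, 11.2, 10.3 and 10.9 in siMYCN, 9.30, 8.58 and 7.81 in siHAND2, and 5.05, 3.94 and 3.74 in the combined knockdown. SHMT2, the mitochondrial form, stood at 149.7, 151 and 152 CPM in siCtrl, 93.3, 86.2 and 84.3 in siMYCN, 108, 115 and 102 in siHAND2, and 85.9, 65.0 and 47.8 in the combined knockdown. SHMT1 was lowest of the single knockdowns under siHAND2 and SHMT2 under siMYCN, and 1 combined sample of SHMT2 lay within the siMYCN range. Log2 fold changes under siMYCN, siHAND2 and both were -0.55, -0.86 and -1.73 for SHMT1 and -0.77, -0.47 and -1.22 for SHMT2, all called. SHMT1 overlaps SMCR8 and SHMT2 overlaps NDUFA4L2 on the other strand in the table's own coordinates, and MTHFD1 overlaps ZBTB25. Whether the counting used strand is not given in the sources used here, so reads shared with those genes cannot be told apart.

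GLDC, the decarboxylase of the glycine cleavage system, was the only 1 of the 38 genes whose mean was higher than siCtrl under siHAND2. Its samples stood at 20.3, 21.4 and 19.3 CPM in siCtrl, 10.5, 9.14 and 9.39 in siMYCN, 24.2, 24.1 and 22.7 in siHAND2, and 12.1, 11.6 and 7.39 in the combined knockdown. All 3 siHAND2 samples lay above all 3 siCtrl samples, and the combined samples overlapped those of siMYCN. GLDC fell under siMYCN (log2 fold change -0.998 ± 0.13 SE, limma adjusted p = 2.2e-06). The value under siHAND2 was 0.21 ± 0.13 SE and not called (limma adjusted p = 0.20), but after rescaling it was 0.36 and called (limma adjusted p = 0.0027).

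Methionine cycle genes fell in 3 of 3 cases under siMYCN, 2 of 3 under siHAND2 and 3 of 3 in the combined knockdown. Shares called lower among all tested genes were 16.3%, 30.4% and 50.1%. AHCY, which hydrolyses S-adenosylhomocysteine, stood at 287, 252 and 270.0 CPM in siCtrl, 184, 172 and 167 in siMYCN, 232, 234 and 214 in siHAND2, and 133, 102 and 82.4 in the combined knockdown. The siHAND2 samples lay below all siCtrl samples, but the log2 fold change of -0.25 was not called (limma adjusted p = 0.14). With both siRNAs AHCY was at 39.2% of siCtrl. MAT2A, which makes S-adenosylmethionine, stood at 194, 192 and 176 CPM in siCtrl, 138, 122 and 128 in siMYCN, 157, 142 and 147 in siHAND2, and 116, 102 and 104 in the combined knockdown. MAT2A under siHAND2 had a log2 fold change of -0.33 (limma adjusted p = 0.017), which was not called after rescaling (-0.17, limma adjusted p = 0.074) or in 4 of 12 fits with 1 sample removed, so that MTR alone of the class was called under siHAND2 on the rescaled values. It changed least of this class, with a log2 fold change of -0.80 in the combined knockdown and -0.44 rescaled. MTR, methionine synthase, had log2 fold changes of -0.55, -0.56 and -1.295 under siMYCN, siHAND2 and both. MAT2A overlaps GGCX on the other strand.

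PRPP synthesis held the gene with the largest combined fall. PRPS2, 1 of the enzymes that make PRPP, stood at 35.5, 36.97 and 37.2 CPM in siCtrl, 20.3, 20.9 and 20.02 in siMYCN, 15.7, 17.2 and 15.9 in siHAND2, and 8.56, 6.76 and 4.78 in the combined knockdown. The 4 groups did not overlap, and PRPS2 was left at 55.9%, 44.5% and 18.3% of siCtrl in the 3 knockdowns (combined log2 fold change -2.32 ± 0.13 SE, limma adjusted p = 9.1e-14). Its paralog PRPS1 stood at 51.7, 46.3 and 49.6 CPM in siCtrl, 41.1, 36.6 and 36.1 in siMYCN, 38.2, 37.6 and 32.5 in siHAND2, and 28.1, 20.8 and 18.5 in the combined knockdown, 45.7% of siCtrl. The PRPS1 call under siMYCN was lost with no filter (limma adjusted p = 0.078) and in 4 of 12 fits with 1 sample removed. Of the salvage enzymes, APRT, which reclaims adenine, stood at 28.8, 27.5 and 30.5 CPM in siCtrl, 16.7, 15.9 and 16.0 in siMYCN, 26.6, 26.3 and 23.3 in siHAND2, and 15.2, 14.6 and 12.1 in the combined knockdown. APRT fell under siMYCN (log2 fold change -0.80), while its log2 fold change of -0.18 under siHAND2 was not called (limma adjusted p = 0.19). HPRT1, which reclaims hypoxanthine and guanine, had a log2 fold change of -0.30 under siMYCN, not called (limma adjusted p = 0.091), and it fell by 0.38 under siHAND2. The HPRT1 call under siHAND2 was lost after rescaling (log2 fold change -0.23, limma adjusted p = 0.18), and 1 siHAND2 sample at 15.5 CPM lay within the siCtrl range of 14.2 to 16.7. Same-numbered siCtrl and siMYCN samples deviated together, and with the replicate number as a block HPRT1 was also called under siMYCN (limma adjusted p = 0.043).

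IMP synthesis, the de novo purine pathway, fell in 6 of 6 cases under siMYCN, 5 of 6 under siHAND2 and 6 of 6 in the combined knockdown. For all tested genes the shares called lower were 16.3%, 30.4% and 50.1%. PAICS, which catalyses the sixth and seventh steps, had the largest siMYCN fall of the 38 genes. It stood at 266, 269 and 254 CPM in siCtrl, 136, 127 and 121 in siMYCN, 169.8, 163 and 147 in siHAND2, and 73.8, 60.3 and 53.3 in the combined knockdown. The 4 groups did not overlap, and the levels were 48.8%, 60.9% and 23.8% of siCtrl (siMYCN log2 fold change -1.03 ± 0.12 SE, limma adjusted p = 3.4e-07). PPAT, the first committed enzyme, which shares the promoter region and the CACGTG printed above with PAICS, had log2 fold changes of -0.83, -0.70 and -1.87 under siMYCN, siHAND2 and both. ADSL, which acts both here and in AMP synthesis, had the smallest combined fall of the class. Its samples stood at 85.0, 76.8 and 84.0 CPM in siCtrl, 59.0, 57.6 and 52.1 in siMYCN, 56.6, 56.9 and 52.9 in siHAND2, and 45.6, 35.1 and 35.8 in the combined knockdown, and the single knockdowns overlapped. GART and PFAS, which build the ring, had combined log2 fold changes of -1.26 and -1.43. The PFAS call under siHAND2 was lost in 5 of 12 fits with 1 sample removed and with no filter (limma adjusted p = 0.064). ATIC, which closes it, was the gene of this class not called under siHAND2 (log2 fold change -0.28, limma adjusted p = 0.17). Its siHAND2 samples stood at 60.6, 37.1 and 35.2 CPM against 59.9, 54.3 and 43.8 in siCtrl, so 1 siHAND2 sample lay above every siCtrl sample.

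AMP and GMP branch genes fell in 4 of 4 cases under siMYCN, 2 of 4 under siHAND2 and 4 of 4 in the combined knockdown. Beside them, 16.3%, 30.4% and 50.1% of all tested genes were called lower. GMPS, which aminates XMP to GMP, stood at 83.0, 82.5 and 77.99 CPM in siCtrl, 60.7, 63.4 and 61.1 in siMYCN, 62.3, 58.0 and 53.9 in siHAND2, and 41.5, 33.4 and 27.9 in the combined knockdown. The GMPS call under siMYCN was lost in 4 of 12 fits with 1 sample removed. IMPDH2, the main form of the rate-limiting enzyme of GMP synthesis in dividing cells, stood at 171, 166 and 174 CPM in siCtrl, 115, 112 and 116 in siMYCN, 141, 138 and 133 in siHAND2, and 90.6, 71.9 and 57.8 in the combined knockdown. Its groups did not overlap, yet the siHAND2 value fell just short of the threshold (log2 fold change -0.31, limma adjusted p = 0.0502; rescaled -0.15, limma adjusted p = 0.037). IMPDH1 stood at 40.9, 40.5 and 38.4 CPM in siCtrl, 28.2, 25.5 and 28.0 in siMYCN, 33.5, 34.3 and 30.2 in siHAND2, and 27.3, 22.9 and 17.0 in the combined knockdown. The IMPDH1 level under both siRNAs overlapped that under siMYCN, at 56.1% and 68.2% of siCtrl. ADSS, which starts the AMP branch, had log2 fold changes of -0.42, -0.30 and -1.06. The siHAND2 value of ADSS (limma adjusted p = 0.044) was not called in 10 of 12 fits with 1 sample removed, nor with no filter (0.060).

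Pyrimidine synthesis fell in 3 of 5 cases under siMYCN, 4 of 5 under siHAND2 and 5 of 5 in the combined knockdown. All tested genes were called lower in 16.3%, 30.4% and 50.1% of cases. CAD, the enzyme of the first 3 steps and a classic MYC target, stood at 187, 204 and 169 CPM in siCtrl, 107, 103 and 103 in siMYCN, 157, 139.7 and 124 in siHAND2, and 61.6, 64.1 and 52.7 in the combined knockdown. The groups did not overlap, and CAD was at 56.0%, 75.0% and 31.8% of siCtrl (combined log2 fold change -1.64 ± 0.12 SE, limma adjusted p = 8.1e-12). DHODH, the mitochondrial dehydrogenase of the pathway, was the lowest expressed of the 38 genes at 2.34, 2.65 and 2.98 CPM in siCtrl, 1.74, 2.12 and 1.84 in siMYCN, 1.49, 1.53 and 1.95 in siHAND2, and 1.67, 1.11 and 0.877 in the combined knockdown. Even its lowest value lay above the 0.0468 to 0.0950 CPM that 3 reads give in these libraries, but its fold change is understated by the added 1. DHODH was not called under siMYCN (log2 fold change -0.33, limma adjusted p = 0.058), and it was called with the replicate block (limma adjusted p = 0.044). UMPS, which makes UMP, had log2 fold changes of -0.32, -0.31 and -0.83. Its siMYCN call was lost in 5 of 12 fits with 1 sample removed. Under siHAND2 the count of called pyrimidine genes depended on single libraries. The call was lost in 9 of those 12 fits for CTPS1, 6 for UMPS and 1 for CAD. Without siHAND2 replicate 3 only DHODH was called, and CAD (limma adjusted p = 0.062), UMPS (0.11) and CTPS1 (0.18) were not.

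The CTP synthases parted in siMYCN. CTPS1 stood at 61.4, 58.4 and 53.4 CPM in siCtrl, 48.5, 40.7 and 40.7 in siMYCN, 51.2, 45.8 and 42.6 in siHAND2, and 30.9, 29.0 and 22.6 in the combined knockdown. CTPS2 stood at 39.6, 37.8 and 39.8 CPM in siCtrl, 39.3, 38.3 and 35.5 in siMYCN, 31.7, 30.5 and 30.6 in siHAND2, and 28.8, 25.1 and 16.5 in the combined knockdown. Under siMYCN the CTPS2 samples overlapped siCtrl (log2 fold change -0.05, limma adjusted p = 0.81), whereas CTPS1 fell by 0.41. That CTPS1 call was lost in 3 of 12 fits with 1 sample removed. Under siHAND2 CTPS1 had limma adjusted p = 0.047, and the call was lost after rescaling (log2 fold change -0.15, limma adjusted p = 0.10) and in 9 of 12 fits with 1 sample removed. Neither gene had a combined sample within its siCtrl range. CTPS2 overlaps S100G on the other strand.

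Thymidylate and deoxyribonucleotide genes behaved differently in the 2 single knockdowns: 2 of 7 fell under siMYCN, 7 of 7 under siHAND2, and 7 of 7 in the combined knockdown. On the rescaled values 3 of 7 fell under siMYCN, and 7 of 7 under siHAND2 and in the combined knockdown. In the same comparisons 16.3%, 30.4% and 50.1% of all tested genes were called lower, and 22.5%, 24.9% and 33% after rescaling. These genes supply DNA precursors, and transcripts such as TK1, TYMS and RRM2 are known to be most abundant in cells replicating their DNA. In bulk RNA, fewer cells in such a state and less RNA per cell cannot be told apart. RRM2, the regulated subunit of ribonucleotide reductase, stood at 274, 277 and 252 CPM in siCtrl, 269, 283 and 252 in siMYCN, 208, 189 and 159 in siHAND2, and 93.5, 87.4 and 70.8 in the combined knockdown. The siMYCN and siCtrl samples covered the same range (log2 fold change 0.00 ± 0.12 SE, limma adjusted p = 0.99), the siHAND2 samples lay below both, and the combined samples lay below all others. TK1, the thymidine kinase of salvage, stood at 70.0, 67.2 and 71.1 CPM in siCtrl, 76.5, 73.0 and 66.7 in siMYCN, 38.8, 36.4 and 32.3 in siHAND2, and 24.7, 18.4 and 14.1 in the combined knockdown. Its siMYCN mean was 104% of siCtrl and not called (log2 fold change 0.05, limma adjusted p = 0.81), while siHAND2 left 51.6% (log2 fold change -0.94 ± 0.14 SE, limma adjusted p = 5.9e-06).

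TYMS, thymidylate synthase, stood at 94.4, 74.6 and 69.9 CPM in siCtrl, 73.3, 63.8 and 64.1 in siMYCN, 51.4, 37.1 and 34.3 in siHAND2, and 18.4, 22.2 and 16.7 in the combined knockdown. Its siMYCN and siCtrl samples overlapped, and the combined knockdown left 23.95% of siCtrl, the lowest share in this class. TYMS overlaps ENOSF1 and TYMSOS on the other strand. RRM1, the catalytic subunit of the reductase, stood at 229.9, 223 and 222 CPM in siCtrl, 199, 206 and 185 in siMYCN, 141, 141 and 119 in siHAND2, and 84.7, 69.6 and 54.0 in the combined knockdown. All siMYCN samples of RRM1 lay below siCtrl, but the log2 fold change of -0.19 was not called (limma adjusted p = 0.28), and it was called after rescaling (-0.18, limma adjusted p = 0.029). DUT, which keeps uracil out of DNA, had a log2 fold change of -0.23 under siMYCN, not called (limma adjusted p = 0.095), and fell by 0.85 under siHAND2. With no filter DUT was called under siMYCN too (limma adjusted p = 0.038), as it was with the replicate block plus rescaling (0.018). DTYMK, the thymidylate kinase, had log2 fold changes of -0.37 and -0.84, both called, but the siMYCN call was lost in 3 of 12 fits with 1 sample removed. NME1, a nucleoside diphosphate kinase that serves every nucleotide, was the exception of the class with a larger fall under siMYCN. Its log2 difference between siMYCN and siHAND2 was -0.24 and not called (limma adjusted p = 0.11). After rescaling that difference was -0.39 and called (limma adjusted p = 3.0e-04). NME1 stood at 501, 450.1 and 499 CPM in siCtrl, 286, 278 and 262 in siMYCN, 321, 335 and 316 in siHAND2, and 215, 177 and 174 in the combined knockdown. The table also lists an NME1-NME2 readthrough gene on the same strand, and reads could be split between them.

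**Figure D2:**
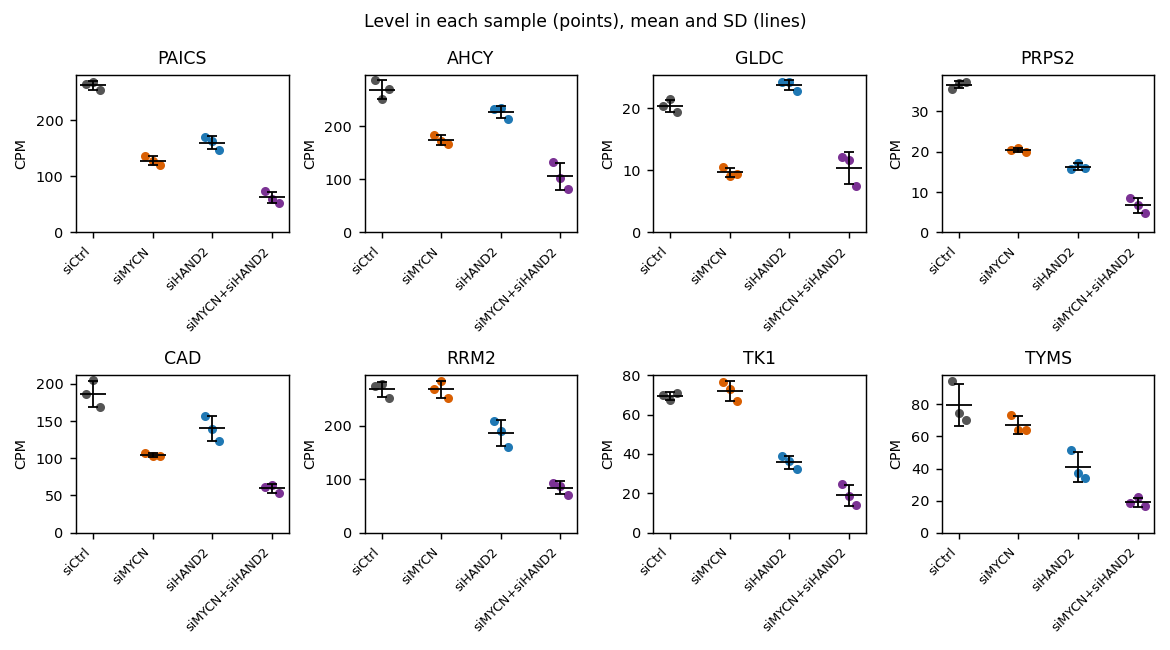
Level of 8 of the genes in CPM (vertical axes from 0) in each sample (points) of the 4 groups (horizontal axes), with the mean and SD of the 3 samples (lines). PAICS, AHCY, GLDC and CAD are lower in the siMYCN samples than in the siHAND2 samples, whereas RRM2 and TK1 lie within or near the siCtrl range in siMYCN and below it in siHAND2.

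In the hg19 coordinates of the table the 38 genes lie on 18 chromosomes, and all overlap their GENCODE place. PAICS lies at chr4:57301915-57327535 on the plus strand beside PPAT at chr4:57259529-57301803 on the minus strand. RRM2 lies at chr2:10262695-10271547 (plus), TK1 at chr17:76170160-76183286 (minus), GLDC at chr9:6532464-6645693 (minus) and PRPS2 at chrX:12809474-12842347 (plus). Levels in siCtrl spanned 2.66 to 483 CPM. Per kilobase of the GENCODE canonical transcript, NME1 was highest at 543 ± 32.5 CPM per kb (SD, n = 3), followed by AHCY at 125 ± 8.32, IMPDH2 at 103 ± 2.33 and RRM2 at 82.1 ± 4.24. MTHFD2, RRM1 and SHMT2 came next at 72.4 ± 2.42, 71.6 ± 1.38 and 70.0 ± 0.571 CPM per kb, and MTHFD2 and RRM1 did not differ beyond their spread. GLDC at 5.29 ± 0.270 and DHODH at 0.569 ± 0.0685 CPM per kb closed the order. Mitochondrial SHMT2 was thus far above cytosolic SHMT1 (6.46 ± 0.542 CPM per kb), and cytosolic MTHFD1 (43.0 CPM per kb) above mitochondrial MTHFD1L (13.9).

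In the direct comparison of siMYCN with siHAND2, 14 of the 38 genes were called, a share close to the 35% of all tested genes. Of the 14, 7 were higher and 7 lower in siMYCN, beside 26.1% of tested genes higher and 8.98% lower. On the deposited CPM no serine synthesis gene and no AMP or GMP branch gene was called, and folate genes were called in both directions. Higher in siMYCN were RRM1, RRM2, TYMS, TK1, DUT and DTYMK, which are 6 of the 7 thymidylate and deoxyribonucleotide genes, with SHMT1. TK1 differed most among them, by 0.99 ± 0.14 SE on the log2 scale (limma adjusted p = 4.2e-06), and TYMS by 0.72. Lower in siMYCN were MTHFD2, GLDC, AHCY, APRT, PFAS, PAICS and CAD, which belong to the folate, methionine, purine and pyrimidine classes. GLDC differed by -1.21 ± 0.13 SE (limma adjusted p = 7.0e-08), APRT by -0.62, CAD by -0.41 and PAICS by -0.32. Over 12 fits with 1 sample removed, the call was lost in 9 for PAICS (limma adjusted p up to 0.16), 7 for SHMT1, 5 for MTHFD2, 4 for AHCY, 4 for PFAS and 1 for CAD, and with no filter PAICS (limma adjusted p = 0.064), SHMT1 (0.078) and AHCY (0.085) were not called.

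Scaling moved this comparison, because the median of all genes was 0.13 on the deposited CPM and -0.0079 after rescaling. On the rescaled values 6 genes were higher (22.4% of tested genes) and 18 lower (22.2%). The 18 included 4 of 6 folate genes and 3 of 4 AMP and GMP branch genes. These 3 were ADSS (-0.27, limma adjusted p = 0.0012), IMPDH1 (-0.40, 2.7e-04) and IMPDH2 (-0.41, 4.3e-05). The 6 were those of the thymidylate and deoxyribonucleotide class, and SHMT1 was no longer called (log2 fold change 0.17, limma adjusted p = 0.095). Samples of the same number also deviated together in these 2 groups, and with the replicate number as a block 18 genes were called in place of 14 (40.7% of tested genes), with PHGDH (limma adjusted p = 0.027), PRPS2 (0.032), SHMT2 (0.040) and ATIC (0.025) added. Without 1 sample the count lay between 9 and 24, and it was 9 without siMYCN replicate 3, siHAND2 replicate 1 or siHAND2 replicate 2, 22 without combined replicate 1 and 24 without combined replicate 3. The matching share of all tested genes was not taken for those fits.

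**Figure D3:**
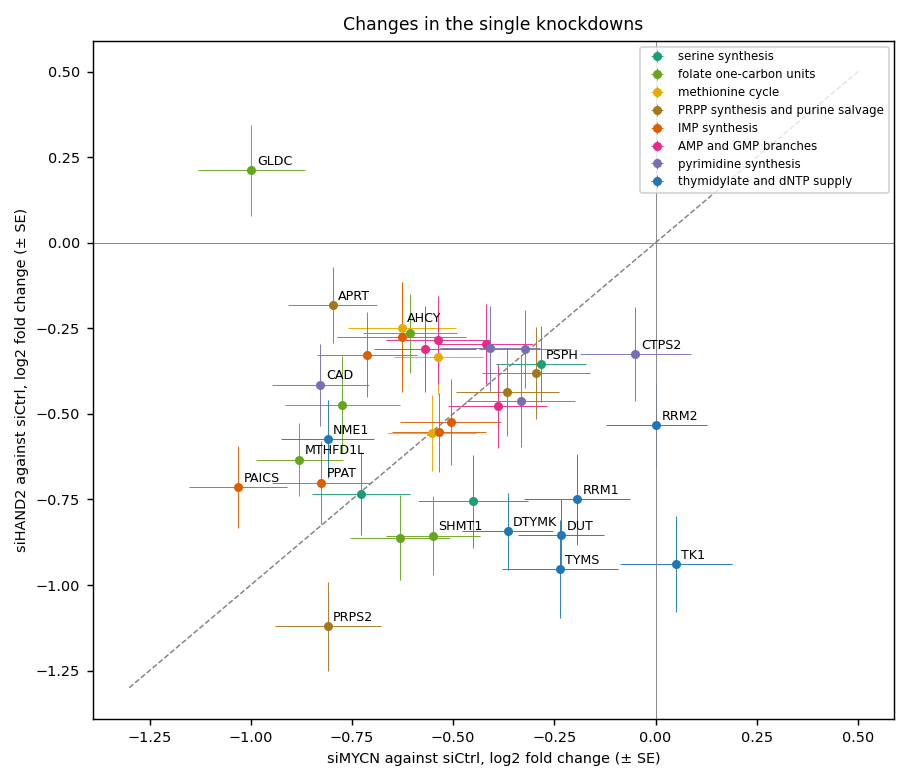
Log2 fold change under siHAND2 (vertical axis) against that under siMYCN (horizontal axis) for the 38 genes, each against the same siCtrl samples, with SE bars and colours for role. The dashed line marks equal change: GLDC and APRT lie above it with the larger fall under siMYCN, and TK1, TYMS, RRM1, RRM2, DUT and DTYMK lie below it.

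The combined knockdown was lower than either single knockdown for most genes. Against siMYCN, 35 of the 38 genes were lower and none higher, beside 58.9% of tested genes called and 50% called lower, with a median log2 fold change of -0.75. The largest differences were in TK1 (-1.90), TYMS (-1.77) and RRM2 (-1.67), and the genes not called were GLDC (0.06), APRT (-0.21) and IMPDH1 (-0.29). After rescaling 29 were lower and GLDC was higher (log2 fold change 0.38), beside 26.6% lower and 30% higher among all tested genes. Against siHAND2, 36 were lower and none higher, beside 40.3% called and 31.5% called lower, with a median of -0.76, and 36 were lower after rescaling (23.6% of tested genes). PAICS (-1.35), MTHFD1 (-1.27) and CAD (-1.22) differed most there, and PSPH (-0.21) and DHODH (-0.27) were not called.

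The interaction term, the combined log2 fold change minus the sum of the single ones, was called for 5 of the 38 genes, all negative, beside 4.01% of tested genes called and 3.65% called negative. RRM2 led with -1.14 ± 0.18 SE (limma adjusted p = 3.3e-04): the single changes summed to -0.53, and the combined change was -1.67. TK1 followed with -0.96 ± 0.20 (limma adjusted p = 0.0061), TYMS with -0.81 ± 0.20 (0.020), RRM1 with -0.76 ± 0.19 (0.018) and MTHFD1 with -0.64 ± 0.18 (0.037). So 4 of the 5 belong to the thymidylate and deoxyribonucleotide class, and the fifth is the folate enzyme MTHFD1. The median interaction of the 38 genes was -0.32 beside -0.18 over all tested genes, and -0.13 beside -0.0091 after rescaling. After rescaling RRM2 (-0.95), TK1 (-0.78), RRM1 (-0.57) and MTHFD1 (-0.45) were called, beside 4.47% of tested genes called negative, and TYMS was not (-0.63, limma adjusted p = 0.070).

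These calls depended on single libraries and on the filter. Without combined replicate 1, which had the highest share of reads on listed genes in its group, 20 genes had a called negative interaction, and without siMYCN replicate 1 the count was 2, with RRM2 and TK1 called whichever sample was left out. It was 3 without siCtrl replicate 2 or 3, siMYCN replicate 2, or siHAND2 replicate 1 or 2. With no filter on low values only RRM2 was called (limma adjusted p = 0.017), with 0.084 for TK1.

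**Figure D4:**
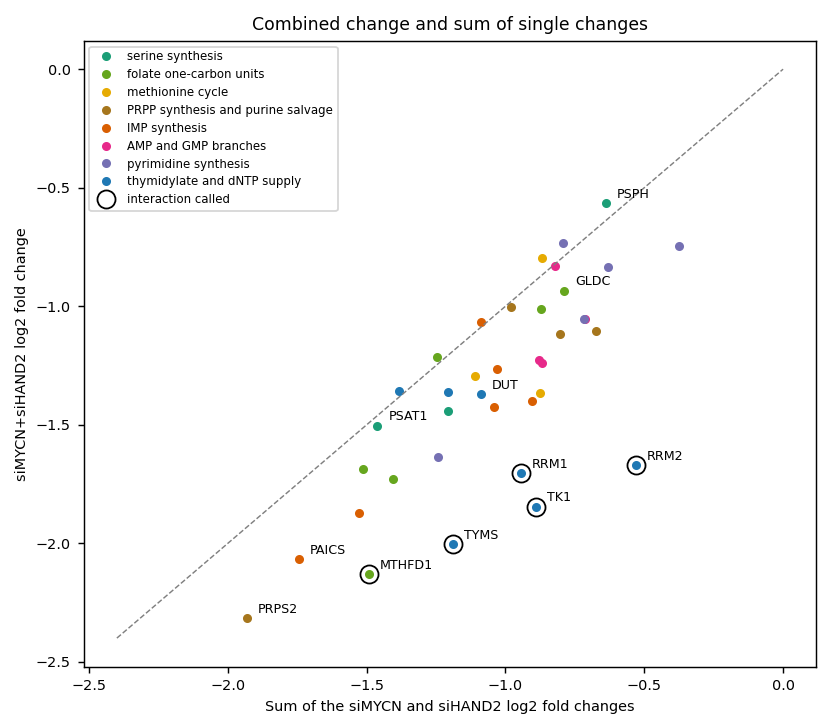
Log2 fold change in the combined knockdown (vertical axis) against the sum of the siMYCN and siHAND2 log2 fold changes (horizontal axis) for the 38 genes, coloured by role, with circles around the 5 genes with a called interaction. RRM2, TK1, RRM1, TYMS and MTHFD1 lie farthest below the dashed line of equality, while PSPH and PSAT1 lie close to it.

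Ratios of paired enzymes within a sample depend less on how a library was scaled than the levels do. Each was taken as the difference of log2(CPM + 1) between 2 genes, in which the added 1 keeps some of the scaling and understates ratios to a low gene such as SHMT1, and 6 pairs were tested across the 4 groups by an exact permutation test over all 369600 assignments, with Benjamini-Hochberg adjustment over the 6. All 6 passed. PRPS2 relative to PRPS1 averaged -0.42 ± 0.11 (SD, n = 3) in siCtrl, -0.86 ± 0.11 under siMYCN, -1.10 ± 0.12 under siHAND2 and -1.62 ± 0.13 with both siRNAs (exact p = 6.49e-05, the smallest that these permutations can give; adjusted 3.9e-04). SHMT2 relative to SHMT1 went down under siMYCN and up under siHAND2, at 3.14, 2.91, 3.52 and 3.65 in the 4 groups (exact adjusted p = 0.0031). The combined minus siCtrl difference of this ratio was 0.51, and 0.70 with 0.1 added in place of 1 (exact adjusted p = 0.0014). The ratio of MTHFD1L to MTHFD1 averaged -1.48, -1.72, -1.25 and -1.03 (exact adjusted p = 7.8e-04), and its siHAND2 samples overlapped those of siCtrl (exact two-sided p = 0.20). For both folate pairs the mitochondrial form was thus relatively lower than in siCtrl under siMYCN and relatively higher in the combined knockdown.

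IMPDH2 relative to IMPDH1 was 2.07, 2.03 and 2.04 in siCtrl and the single knockdowns and 1.67 in the combined knockdown, below all other samples (exact adjusted p = 0.022). CTPS1 relative to CTPS2 was 0.55 in siCtrl and 0.57 in siHAND2 but 0.19 in siMYCN and 0.24 in the combined knockdown (exact adjusted p = 0.022). RRM2 relative to RRM1 was higher in the single knockdowns, at 0.44 and 0.46, than in siCtrl at 0.25 or the combined knockdown at 0.28 (exact adjusted p = 0.031). Between siCtrl and 1 knockdown, 3 samples against 3 cannot give an exact two-sided p below 0.10. That smallest value was reached by all 3 comparisons of PRPS2 to PRPS1 and of SHMT2 to SHMT1.

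**Figure D5:**
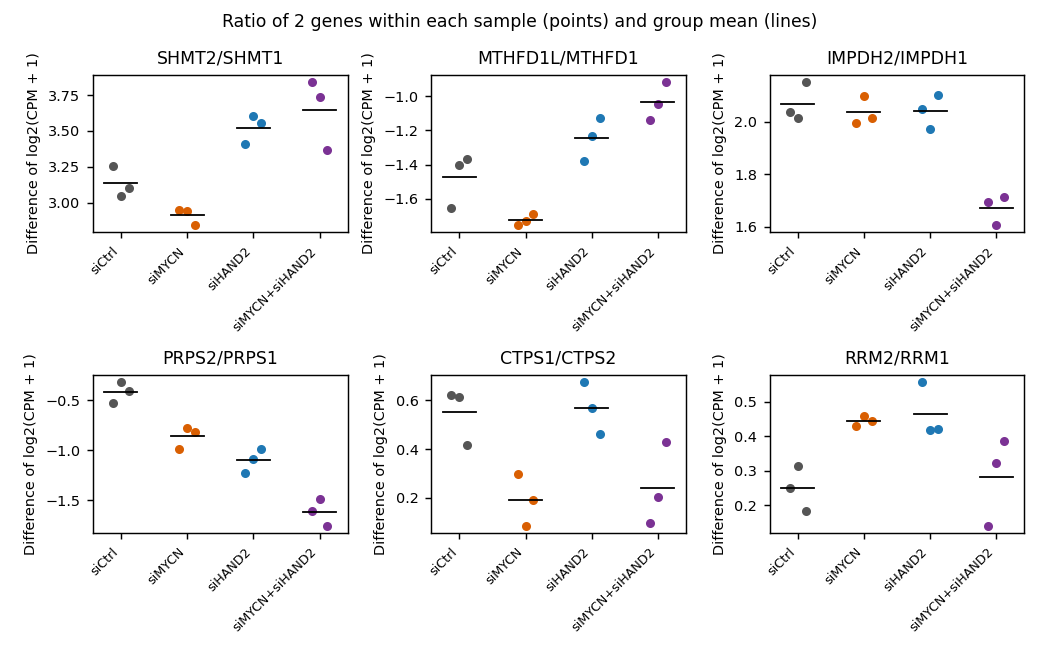
Ratio of 2 paired genes within each sample, as a difference of log2(CPM + 1) on the vertical axes, in the 4 groups (points are samples, lines are means of 3). The ratio of PRPS2 to PRPS1 steps down from siCtrl to siMYCN, siHAND2 and the combined knockdown, and those of SHMT2 to SHMT1 and MTHFD1L to MTHFD1 are lowest in siMYCN and highest in the combined knockdown.

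The genes with CACGTG in the promoter window had a median log2 fold change of -0.81 under siMYCN (7 genes) and those without it -0.45 (27 genes). Under siHAND2 the medians were -0.63 and -0.44, and in the combined knockdown -1.69 and -1.295. The ranges overlapped: under siMYCN they ran from -1.03 to -0.33 with the letters and from -0.998 to 0.050 without. These values are a description, since the letters in a window do not show binding.

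The other genes of these pathways fell less uniformly. Of 21 other genes of folate, serine and methionine metabolism, 18 were tested, and 8 fell under siMYCN, 11 under siHAND2 and 16 in the combined knockdown, with none rising and medians of -0.26, -0.36 and -0.81. On the rescaled values 11, 10 and 15 fell, and 1 rose under siMYCN and 1 in the combined knockdown. Beside these counts, 16.3%, 30.4% and 50.1% of all tested genes were called lower, and 22.5%, 24.9% and 33% on the rescaled values. SLC25A32, the mitochondrial folate carrier, had log2 fold changes of -0.79, -0.58 and -1.39, with the larger single change under siMYCN. Of 41 nucleotide kinase, salvage and breakdown genes, 36 were tested. Under siMYCN 11 fell and 6 rose, under siHAND2 16 fell, and in the combined knockdown 26 fell and 3 rose. Scaling moved these counts: on the rescaled values 14 fell and 8 rose, 16 fell and 3 rose, and 19 fell and 9 rose in the 3 comparisons. Before rescaling, 33.7%, 42.7% and 67.4% of all tested genes were called in either direction. The shares called lower on both scales were those given above. AK4, a mitochondrial adenylate kinase, had log2 fold changes of -1.16, -1.31 and -2.86, and SLC29A1, a nucleoside transporter, of -0.74, -1.01 and -2.396. AK1, the cytosolic adenylate kinase, rose under siMYCN and both (log2 fold changes 0.62 and 0.59), as did ADSSL1 (0.63 and 0.57), the muscle form of adenylosuccinate synthase, at a siCtrl level of 0.807 CPM.

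DNA replication genes were set beside the thymidylate class. Of 30 such genes, 13 fell under siMYCN, 30 under siHAND2 and 30 in the combined knockdown, with medians of -0.29, -0.87 and -1.72. Among all tested genes 16.3%, 30.4% and 50.1% were called lower in these comparisons. In the direct comparison 26 of the 30 were higher in siMYCN than in siHAND2 and none lower, beside 26.1% of tested genes higher and 8.98% lower. A called negative interaction was found for 14, beside 3.65% of tested genes. CDC6, which loads the replicative helicase, had log2 fold changes of -0.46, -0.96 and -2.16, and MCM4, a helicase subunit, of -0.48, -0.97 and -2.12. After rescaling 22 of the 30 fell under siMYCN (22.5% of tested genes called lower), with a median of -0.28. The counts under siHAND2 and in the combined knockdown were 30 after rescaling too (24.9% and 33% of tested genes), with medians of -0.71 and -1.38. The part that the share of replicating cells has in these values was not tested.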

How the data were processed

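The authors deposited CPM for 27514 genes in 12 libraries, aligned with STAR (2.5.1) and handled in Partek on hg19, per the submitters' processing notes. The counting tool, annotation and strand setting are not given in the sources used here. A constant of 0.0001 added to every deposited value was removed. Only 90.3% to 91.8% of low values were whole multiples of 1 read, so no count test was used, and deposited values are normalised to all reads of a library, whose share on listed genes differed between groups. Depth was read from these steps.

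Samples were grouped by title. Of all listed genes, 12680 averaged 1 CPM or more and were tested, as log2(CPM + 1), by limma 3.58.1 (R 4.3.3; lmFit, then eBayes with trend; all 4 groups, 8 residual degrees of freedom), Benjamini-Hochberg adjustment over all genes and a threshold of 0.05, two-sided; the script was tested on simulated data. Replicates of a group differed beyond sampling noise (mean chi-square per gene 3.36 to 37.8). Of 18 correlations between the deviations of same-numbered samples, 11 were over 0.1. All 3 were over 0.1 for siCtrl with siMYCN (0.44, 0.15 and 0.31) and siMYCN with siHAND2 (0.33, 0.14 and 0.32), so these comparisons count as paired; the calls reported are those without the block, and calls with the replicate number as a block are given beside them where they differ. Alternatives were no filter, a filter at 5 CPM, an added 0.1 in place of 1, median ratio scaling, scaling to the sum over listed genes, the replicate block, the groups compared alone, and leaving out each sample. Genes with values in every sample were those with the largest or smallest combined change in their class, with a called interaction, or in a pair, besides HPRT1, ATIC and MTHFD2, which were chosen after their values were seen. From the other lists the 2 largest rises and falls in the combined knockdown were named, apart from an item that is not reported here. The members and lists were chosen with earlier results of these data known. Promoters were searched by exact letters on both strands.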

Additional observations from a re-analysis of the deposited data

Results flagged for a closer look

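The effect of the siRNA against HAND2 differed with and without the siRNA against MYCN for 5 of the 38 genes, as tested by limma's interaction term. RRM2 had an interaction of -1.14, TK1 of -0.96, TYMS of -0.81, RRM1 of -0.76 and MTHFD1 of -0.64 on the log2 scale. For RRM2 and TK1 the call was made whichever sample was left out. It was lost in 8 of these 12 fits for MTHFD1 (limma adjusted p up to 0.12), in 4 for TYMS and in 3 for RRM1. MYCN transcript was also lower in the combined knockdown than under siMYCN, so HAND2 loss and a deeper MYCN fall cannot be told apart in these values.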

How the results depend on the processing

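All 38 genes stayed called lower in the combined knockdown against siCtrl under all 20 alternatives, apart from DHODH with a mean CPM of at least 5, where it was not tested. Counts of called genes without 1 sample ran from 23 to 32 for siMYCN and 22 to 36 for siHAND2 against siCtrl, 32 to 37 and 35 to 38 for the combined knockdown against siMYCN and siHAND2, 9 to 24 for siMYCN against siHAND2, and 2 to 20 for the interaction. Counts in this paragraph that have no share of all tested genes beside them show only how the calls moved between fits. Comparing siMYCN with siHAND2, 24 genes were called with median ratio scaling (22.4% of tested genes higher and 22.2% lower). In the same comparison 24 were called with scaling to the listed genes, 24 with only those groups and 27 with the replicate block plus median ratio scaling. In that comparison the median of the 38 genes turned to -0.14 with median ratio scaling, with or without the block, and PSAT1 (-0.14) and GART (-0.13) were called lower with the block and that scaling. No filter left 1 interaction. For the combined knockdown against siMYCN, median ratio scaling turned PSPH to 0.041 and MAT2A to 0.086, with and without the block, and scaling to the listed genes turned MAT2A to 0.024, none of them called. Median ratio scaling there also turned APRT (0.12) and IMPDH1 (0.042), not called on either scale, so that 33 genes lay below 0 in place of 37, and SHMT2, MTHFD2, ATIC and DHODH were no longer called. The replicate block alone called 34 genes under siHAND2, with MTHFD2, IMPDH1, IMPDH2 and CTPS2 added. It called 38 in the combined knockdown, 36 against each single knockdown and 6 interactions, AHCY being added (limma adjusted p = 0.043). Of 12 samples, 8 correlated best with their own number. The difference between the combined knockdown and siCtrl ran from -0.40 to -0.24 for CTPS1 to CTPS2 and from -0.017 (without combined replicate 3) to 0.11 for RRM2 to RRM1 when 1 sample was left out. The exact adjusted p then reached 0.051 and 0.061, so these 2 ratios rest on few samples, and the cause of these changes was not tested. With 3 samples a group, differences of the size of the SE (0.11 to 0.16 for the 38 genes in the comparisons with siCtrl) were not detectable.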

Other observations

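The share of each class in the summed CPM of the 38 genes, a measure that does not depend on library scaling, was chosen after the data were seen and is given without a test. The shares sum to 100%, so a higher share can go with a lower level. Thymidylate and deoxyribonucleotide genes made up 29.9% ± 0.678 (SD, n = 3) of the sum in siCtrl, 34.3% ± 0.523 under siMYCN, 26.8% ± 0.159 under siHAND2 and 26.8% ± 0.913 with both siRNAs. IMP synthesis made up 17.1% ± 0.313, 14.5% ± 0.0771, 16.6% ± 0.367 and 14.6% ± 0.0790, and was thus lower in both groups that received the siRNA against MYCN. The methionine cycle made up 13.2%, 12.8%, 14.9% and 15.6%, with the higher shares in both groups that received the siRNA against HAND2, although its genes had lower means there than in siCtrl. PRPP synthesis and salvage made up 3.02%, 2.93%, 2.95% and 2.996%.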
